A study of Mus musculus with 20 samples.

Results

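This report follows 9 transcription factor genes of the neural crest and the head mesenchyme in cultured mouse conceptuses exposed to a phthalate metabolite. The genes are Pax3, Pax7, Tfap2a, Tfap2b, Snai2, Twist1, Alx1, Prrx1 and Prrx2, taken by gene symbol from 20794 measured genes. The array carries 22 probe sets for them, among 38367 probe sets with a gene name. Every probe set is described, and the brightest on average across the 20 arrays, the main probe set, stands for its gene.

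The neural crest forms at the border of the closing neural tube, leaves it by an epithelial to mesenchymal transition and gives rise to much of the facial skeleton, the peripheral nervous system and pigment cells. Pax3, Pax7 and the AP-2 proteins Tfap2a and Tfap2b act at the neural plate border and in early crest. Snai2 and Twist1 accompany the transition to mesenchyme, and the homeodomain factors Alx1, Prrx1 and Prrx2 pattern the mesenchyme of the head. None of the 9 belongs to the crest alone, since Pax3 and Pax7 also mark the dorsal neural tube and the somites, Twist1, Prrx1 and Prrx2 the limb and lateral mesoderm, and Tfap2a the surface ectoderm.

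The conceptuses were of the outbred CD-1 stock and were grown outside the dam for 24 h, between gestational days 8 and 9, when the neural tube closes. The medium held either 0.01% DMSO, the vehicle of the controls, or 100 µg/ml mono-2-ethylhexyl phthalate (MEHP), the monoester to which the plasticizer DEHP is hydrolysed. Embryos and visceral yolk sacs were profiled separately and were grouped by neural tube defect (NTD). Per tissue, 3 arrays came from controls free of a defect and 1 from a control with a defect, and MEHP contributed 3 of either kind. In the text, "control" and "MEHP" without further words mean the arrays without NTD. The sources used here do not say if an array holds 1 conceptus or several, so p-values measure the spread between these samples, which may be technical. Whole embryos were profiled, so fewer cells of a type and less RNA per cell cannot be told apart.

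Values are log2 expression levels from RMA, as deposited, and array medians lay between 4.81 and 4.90. The array groups follow the authors' comparison tables, because a second file of identical values carries headings that would place 13 of the 20 arrays in another group. The tissue labels were checked against marker genes: 10 of 10 neural tube progenitor markers were higher in control embryos and 10 of 10 visceral endoderm markers were higher in control yolk sacs. The mean of 9 nonspecific control probe sets, a measure of background, moved with exposure. It lay between 3.918 and 4.048 in control embryos, between 3.704 and 3.801 in MEHP embryos and between 3.650 and 3.780 in MEHP embryos with NTD. Array order in the table follows exposure and then NTD, so order and group cannot be told apart.

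RefSeq promoter entries (build GRCm38.p6) were at hand for 6 of the 9 genes. The 250 bases before the annotated start are shown for Prrx1, whose main probe set differed most of the 9 between MEHP embryos with and without NTD, for its paralogue Prrx2, and for Tfap2a, 1 of its 2 entries. Capitals mark TAATTA, the core bound by paired-class homeodomain proteins such as the Prrx and Alx factors, and GCCNNNGGC, the site bound by AP-2 proteins. The Snail site CACCTG was searched as well, and all 3 motifs were searched on both strands. No 2 of the marked matches overlap.
Prrx1, chr1:163313651-163313900, minus strand: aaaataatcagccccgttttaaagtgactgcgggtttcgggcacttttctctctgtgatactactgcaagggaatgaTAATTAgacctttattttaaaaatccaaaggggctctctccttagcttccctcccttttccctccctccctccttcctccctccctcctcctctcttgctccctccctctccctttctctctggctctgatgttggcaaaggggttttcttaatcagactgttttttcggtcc
Tfap2a, chr13:40734921-40735170, minus strand: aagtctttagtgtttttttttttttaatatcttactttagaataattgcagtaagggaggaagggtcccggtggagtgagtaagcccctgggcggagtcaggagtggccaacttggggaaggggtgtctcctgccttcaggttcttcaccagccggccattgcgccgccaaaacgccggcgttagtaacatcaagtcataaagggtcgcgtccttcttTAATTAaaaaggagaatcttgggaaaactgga
Prrx2, chr2:30845117-30845366, plus strand: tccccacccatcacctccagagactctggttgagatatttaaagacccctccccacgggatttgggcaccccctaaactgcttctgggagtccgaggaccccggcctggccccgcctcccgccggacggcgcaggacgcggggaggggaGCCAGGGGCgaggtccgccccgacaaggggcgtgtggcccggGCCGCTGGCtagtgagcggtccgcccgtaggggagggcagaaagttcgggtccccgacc
The windows shown of Prrx1 and Tfap2a each hold 1 TAATTA, which 4.84% of 32851 promoter windows of this length hold. The other Tfap2a window and those of Tfap2b, Pax7 and Twist1 hold no match to any of the 3 motifs. Prrx2 holds 2 matches to GCCNNNGGC, against 13.7% of windows with at least 1. CACCTG was not found in any of the 7 windows of the 6 genes and is held by 5657 of all windows. A match is a run of letters and says nothing about binding, and the arrays do not measure binding.

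All 9 factors were higher in control embryos than in control yolk sacs, where 51.3% of all genes differed and 28.4% were higher in the embryo. Prrx1 and Twist1 were higher by 3.14 and 3.02 log2 units, and Tfap2a and Pax3 by 2.77 and 2.27. Prrx2 read 8.67, 8.61 and 8.55 in control embryos and 4.30, 4.55 and 3.90 in control yolk sacs (limma, adjusted p = 9.51e-13). The nonspecific level was 3.869 to 4.080 in control yolk sacs. Prrx2, Tfap2b, Pax7 and Alx1 each read below it in at least 1 of the 3 arrays, so no fold is given for these 4 genes, and Prrx1, at 4.51 to 4.61, stood less than 1 log2 unit above it.

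Snai2, a zinc finger repressor that helps epithelial cells become mesenchymal, was the exception. Its main probe set (1447643_PM_x_at) read 9.55, 9.60 and 9.68 in control embryos and 9.32, 9.40 and 9.44 in control yolk sacs. The groups did not overlap, but the difference was only 0.22 ± 0.07 log2 units (SE, 3 arrays a group, adjusted p = 0.00811), and it no longer passed after cyclic loess normalisation (0.13, adjusted p = 0.108), without 3 arrays of high 3′/5′ signal ratio (0.20, adjusted p = 0.0615) or for the mean of its probe sets (0.14, adjusted p = 0.108). The other Snai2 probe set (1418673_PM_at) showed overlapping arrays, with means of 8.23 in embryo and 8.17 in yolk sac (0.06 ± 0.09, adjusted p over all probe sets = 0.656). Snai2 transcript was therefore read at a similar level in both tissues by both probe sets, whereas the yolk sac arrays of Alx1, Pax7 and Tfap2b lay between 3.31 and 4.18, around the level of the nonspecific probe sets. The suffix x in an Affymetrix probe set name marks possible cross-hybridisation, which was not tested.

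**Figure D1:**
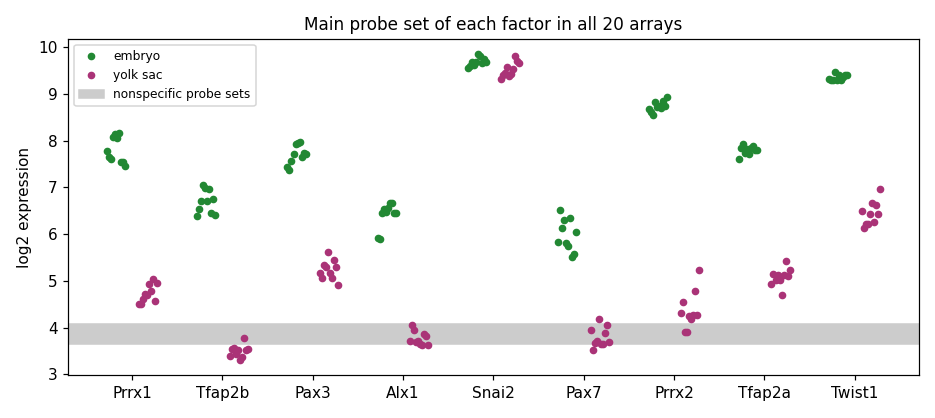
Log2 expression (vertical axis) of the main probe set of each factor in the 10 embryo arrays (green) and the 10 yolk sac arrays (purple), 1 point per array. The grey band runs from the lowest to the highest array mean of the nonspecific probe sets over the 20 arrays, and single nonspecific probe sets are not shown. Snai2 stands at 9.32 or above in every array of both tissues, while the tissues are apart for the other 8 factors.

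With MEHP, 2 of the 9 factors rose in embryos without NTD, Pax3 and Prrx1, and 0 fell, while 9.72% of all genes passed the threshold, 3.82% as rises and 5.9% as falls. At an unadjusted p below 0.05, 5 of the 9 differed, against 28.8% of all genes. The median difference of the 9 was 0.17 log2 units, beside -0.04 over all genes. Between MEHP embryos with and without NTD, 1 of the 9 passed the threshold, Prrx1, which was lower with NTD, and 3 had an unadjusted p below 0.05. Of all genes, 0.024% passed in that comparison and 0.0144% fell, and 5.66% had an unadjusted p below 0.05. MEHP embryos with NTD set against controls gave 0 of 9 past the threshold and 4 at an unadjusted p below 0.05, while 7.45% and 27.7% of all genes did. These comparisons share arrays: the MEHP arrays enter the first and the second, those with NTD the second and the third, and the controls the first and the third. For Prrx1 and Pax3 the main probe set was the brightest over both tissues but not in embryos. In control embryos the Prrx1 mean was 7.68, beside 8.79 for 1425528_PM_at, and the Pax3 mean was 7.45, beside 8.16 for 1441743_PM_at. In control yolk sacs the order was reversed, at 4.54 beside 3.70 and at 5.19 beside 4.29. These other probe sets are described with their genes below.

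The 13 other probe sets of the 9 factors were tested over all probe sets. With MEHP in embryos, 3 of them rose (6.4% of all probe sets) and 1 fell (5.65%), where 12% of all probe sets passed and 30.2% had an unadjusted p below 0.05, as 6 of the 13 did. With NTD among MEHP embryos none of the 13 passed by limma and 8 had an unadjusted p below 0.05, against 0.00444% and 5.54% of all probe sets. In MEHP embryos with NTD, 4 of the 13 fell against controls and 5 had an unadjusted p below 0.05, where 9.19% of all probe sets passed, 4.2% fell and 28.2% had an unadjusted p below 0.05. In control embryos 10 of the 13 were higher than in control yolk sacs, where 43% of all probe sets differed and 24.4% were higher in the embryo.

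With the level of the nonspecific probe sets as a covariate, 0 of the 20794 genes passed with MEHP by limma. That level does not overlap between the groups, so it and exposure cannot be told apart. Both differences kept their direction in that fit, at 0.42 for Pax3 (adjusted p = 0.637) and 0.54 for Prrx1 (adjusted p = 0.602). Of the 2021 genes called with MEHP, 39.3% rose, and quantile and cyclic loess normalisation made that share 56.0% and 66.4%. Pax3 and Prrx1 stayed among the rises in both, with differences of 0.40 and 0.34 after quantile normalisation and of 0.44 and 0.38 after cyclic loess.

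**Figure D2:**
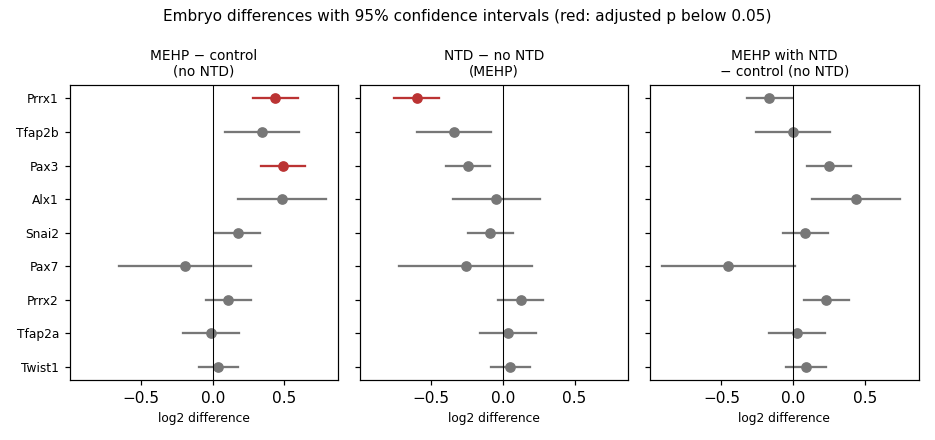
Log2 differences (horizontal axis) of the main probe set of each factor in 3 embryo comparisons, with 95% confidence intervals from limma (3 arrays a group, spread estimated over the 10 embryo arrays). Red marks an adjusted p below 0.05: Pax3 at 0.49 and Prrx1 at 0.44 with MEHP, and Prrx1 at -0.60 with NTD.

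Pax3, a paired-box factor of the dorsal neural tube, premigratory crest and somites whose loss causes NTDs in the mouse, rose with MEHP. Its main probe set (1420389_PM_at) read 7.43, 7.37 and 7.56 in controls, 7.92, 7.94 and 7.96 in MEHP embryos and 7.65, 7.74 and 7.72 in MEHP embryos with NTD. These 3 groups did not overlap, and the control with NTD read 7.71, among the MEHP embryos with NTD. The rise with MEHP was 1.41-fold (0.49 ± 0.07 log2 units, SE, adjusted p = 0.00740) and passed without each array in turn (highest adjusted p = 0.0385). MEHP embryos with NTD stood 0.24 ± 0.07 below those without (adjusted p = 0.510) and 0.25 ± 0.07 above controls (adjusted p = 0.0541).

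The other Pax3 probe sets did not move equally. 1441743_PM_at, the brightest of the 3 in embryos, rose by 0.40 ± 0.11 with MEHP (adjusted p over all probe sets = 0.0465), from 7.94, 8.22 and 8.32 to 8.58, 8.59 and 8.49. That call held in 1 of 6 fits without an array, the fit without control array 3, and not after quantile or cyclic loess normalisation (adjusted p = 0.0878 and 0.0708). 1430335_PM_a_at overlapped between the groups and differed by 0.13 ± 0.11 (adjusted p = 0.464). All 3 probe sets were lower in MEHP embryos with NTD than in those without, by 0.24 to 0.31, and none of the 3 passed.

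Pax7, the paralogue of Pax3 in the dorsal neural tube and somites, varied widely within groups. Its main probe set (1444596_PM_at) read 5.83, 6.51 and 6.14 in controls, 5.81, 5.74 and 6.35 in MEHP embryos and 5.50, 5.58 and 6.05 in MEHP embryos with NTD, and all groups overlapped. The differences of -0.19 ± 0.21 with MEHP (95% confidence interval -0.65 to 0.27) and -0.26 ± 0.21 with NTD (-0.72 to 0.20) did not pass. The dimmer probe set 1452510_PM_at was lower in MEHP embryos with NTD, at 4.57, 4.55 and 4.54 against 4.96, 5.16 and 4.81 in controls (-0.42 ± 0.09, adjusted p = 0.0268). That call held in 1 of 6 fits without an array, the fit without control array 3 (-0.50, adjusted p = 0.0149), with adjusted p up to 0.0777 in the others.

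Neither AP-2 gene passed in the embryo comparisons. Tfap2a, needed in the mouse for cranial closure and crest, showed overlapping groups: its main probe set (1421996_PM_at) read 7.62, 7.85 and 7.94 in controls, 7.83, 7.71 and 7.84 in MEHP embryos and 7.88, 7.80 and 7.81 in MEHP embryos with NTD. Its difference with MEHP was -0.01 ± 0.09, with a confidence interval from -0.20 to 0.18, and with NTD 0.04 ± 0.09 (-0.16 to 0.23). The other 2 probe sets of Tfap2a differed by 0.12 or less with MEHP, and the groups overlapped for both.

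Tfap2b (1435670_PM_at) read 6.39, 6.53 and 6.71 in controls, 6.98, 6.72 and 6.96 in MEHP embryos and 6.46, 6.76 and 6.41 in MEHP embryos with NTD. MEHP arrays lay above control arrays, and the arrays with NTD lay within the control range apart from a reading of 6.76. Neither difference passed, at 0.34 ± 0.12 with MEHP (adjusted p = 0.0865) and -0.34 ± 0.12 with NTD (adjusted p = 0.677). The other Tfap2b probe set (1423340_PM_at) differed by 0.21 ± 0.10 and -0.37 ± 0.10 in the same comparisons (adjusted p = 0.164 and 0.519).

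Snai2 was higher in MEHP embryos by both probe sets, and 1 of them passed. The main probe set read 9.55, 9.60 and 9.68 in controls and 9.69, 9.85 and 9.80 in MEHP embryos, a difference of 0.17 ± 0.07 (adjusted p = 0.135). The probe set 1418673_PM_at read 8.04, 8.26 and 8.41 in controls and 8.62, 8.65 and 8.56 in MEHP embryos, a rise of 0.38 ± 0.10 (adjusted p over all probe sets = 0.0374). That rise passed in 1 of 6 fits without an array, the fit without control array 3 (0.46, adjusted p = 0.0179), and not after quantile or cyclic loess normalisation (adjusted p = 0.0625 and 0.0512). Without NTD and with NTD, MEHP embryos overlapped for both probe sets.

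Twist1, a basic helix-loop-helix factor of cranial mesenchyme that is needed for cranial closure in the mouse, had the smallest standard error of the 9 main probe sets in embryos. It read 9.31, 9.29 and 9.29 in controls, 9.30, 9.40 and 9.31 in MEHP embryos and 9.35, 9.41 and 9.41 in MEHP embryos with NTD. The difference with MEHP was 0.04 ± 0.06 (confidence interval -0.10 to 0.18) and that with NTD was 0.05 ± 0.06 (-0.09 to 0.19). MEHP embryos with NTD lay above controls without overlap, by 0.09 ± 0.06, which did not pass (adjusted p = 0.369).

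Alx1, a homeobox gene of the frontonasal mesenchyme whose loss in the mouse leaves the cranial neural tube open, was read by 2 probe sets. The main probe set (1435022_PM_at) stood at 5.92, 5.89 and 6.45 in controls, at 6.47, 6.55 and 6.67 in MEHP embryos and at 6.67, 6.45 and 6.44 in MEHP embryos with NTD. Control array 3 lay just below the MEHP arrays, and the control with NTD, at 6.54, among them. The difference with MEHP was 0.48 ± 0.14 (adjusted p = 0.0529). It passed when control array 3 was left out (0.66, adjusted p = 0.00723) and in none of the other 5 such fits.

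The second Alx1 probe set (1456454_PM_at) rose with MEHP in embryos without NTD. It read 4.95, 5.36 and 5.08 in controls, 5.84, 5.84 and 6.01 in MEHP embryos and 4.77, 5.09 and 5.53 in MEHP embryos with NTD. The MEHP arrays lay above all the others, the control with NTD included (5.54). The rise was 0.77 ± 0.17 (adjusted p over all probe sets = 0.0218) and held in 2 of 6 fits without an array, those without control array 2 or 3. The difference with NTD was -0.77 ± 0.17 and did not pass (adjusted p = 0.407), whereas the main probe set differed by -0.04 ± 0.14 there. The probe sets of Alx1 thus disagreed on MEHP embryos with NTD.

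**Figure D3:**
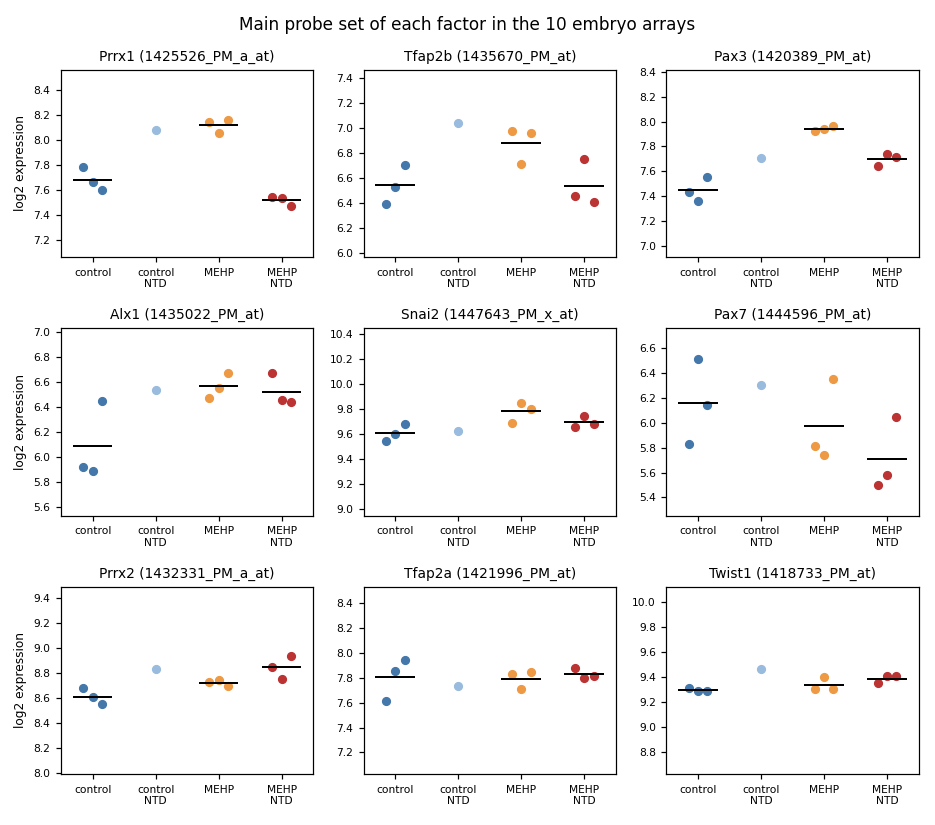
Log2 expression (vertical axis) of the main probe set of each factor in the 10 embryo arrays, by group; each point is an array, the line is the mean of 3 arrays, and the control group with NTD has a single array. For Pax3 the 3 MEHP arrays without NTD lie above all others, and for Prrx1 they lie above all others but the control with NTD at 8.08.

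Prrx1, a homeobox gene of cranial, limb and lateral plate mesenchyme, was higher in MEHP embryos without NTD and lower in those with NTD by its main probe set (1425526_PM_a_at). It read 7.78, 7.66 and 7.60 in controls, 8.14, 8.05 and 8.16 in MEHP embryos and 7.54, 7.54 and 7.47 in MEHP embryos with NTD. The 3 groups did not overlap, and the control with NTD read 8.08, between MEHP readings. The rise with MEHP was 1.35-fold (0.44 ± 0.07, adjusted p = 0.00992) and passed without each array in turn (highest adjusted p = 0.0430).

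The fall of Prrx1 with NTD among MEHP embryos was 1.52-fold (-0.60 ± 0.07, adjusted p = 0.0441). Its size changed little without any 1 of the 6 arrays, from -0.63 to -0.58, but it passed in none of those fits (adjusted p from 0.0673 to 0.233). It did not pass over all probe sets (adjusted p = 0.0653), after quantile or cyclic loess normalisation (0.0804 and 0.0631) or in a fit of these 2 groups alone (0.136). The authors' deposited table compares all 4 embryo arrays with NTD with all 6 without, controls included. There this probe set differed by -0.24 (adjusted p = 0.993), and no probe set passed. Prrx1 in MEHP embryos with NTD stood 0.17 ± 0.07 below controls (adjusted p = 0.161). The 1 control with NTD was not low in Prrx1, and with a single array it has no spread.

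The 6 Prrx1 probe sets disagreed on exposure and pointed the same way on NTD. 1432129_PM_a_at averaged 5.85 in controls and 5.62 in MEHP embryos, and this difference did not pass. With MEHP, 1439774_PM_at was higher by 0.36 ± 0.12 (adjusted p = 0.0679). 1425528_PM_at, the brightest of the 6 in embryos, differed by 0.08 ± 0.12, and 1425527_PM_at fell by 0.39 ± 0.11 (adjusted p = 0.0451). The last read 5.38, 5.27 and 5.12 in controls and 4.74, 4.76 and 5.10 in MEHP embryos. Its fall held in 2 of 6 fits without an array, those without MEHP array 3 or control array 3. This probe set was dim, with the nonspecific level at 3.704 to 3.801 in MEHP embryos. Its control means were 5.26 in embryo and 4.67 in yolk sac, beside 8.79 and 3.70 for 1425528_PM_at. The mean over the 6 probe sets differed by 0.03 with MEHP (adjusted p = 0.746). In the authors' deposited table, which compares all 6 MEHP with all 4 control embryo arrays, 1425527_PM_at had a log2 difference of -0.43 (adjusted p = 0.0130). There 1432129_PM_a_at was lower too, at -0.39 (adjusted p = 0.0215), and the main probe set differed by 0.04 (adjusted p = 0.897).

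With NTD among MEHP embryos all 6 Prrx1 probe sets were lower, by 0.09 to 0.60 as sizes of the log2 difference, and none passed over all probe sets. The bright 1425528_PM_at read 9.06, 8.67 and 8.86 without NTD and 8.26, 8.26 and 8.56 with NTD (-0.50 ± 0.12, adjusted p = 0.432). The mean of the 6 probe sets was -0.36 (adjusted p = 0.184). The probe set 1458004_PM_at, at 3.14 to 3.44 in embryos, lay below the nonspecific level.

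Against controls, 3 other Prrx1 probe sets fell in MEHP embryos with NTD, 1425527_PM_at by 0.60 ± 0.11, 1432129_PM_a_at by 0.54 ± 0.11 and 1425528_PM_at by 0.43 ± 0.12 (adjusted p = 0.0137, 0.0171 and 0.0490). The call held in 6 of 6 fits without an array for 1432129_PM_a_at, in 5 of 6 for 1425527_PM_at (not without MEHP NTD array 2, adjusted p = 0.0510) and in 1 of 6 for 1425528_PM_at (without MEHP NTD array 3). None of these Prrx1 falls passed with the nonspecific level as a covariate (adjusted p = 0.693, 0.598 and 0.865 in the order named first).

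**Figure D4:**
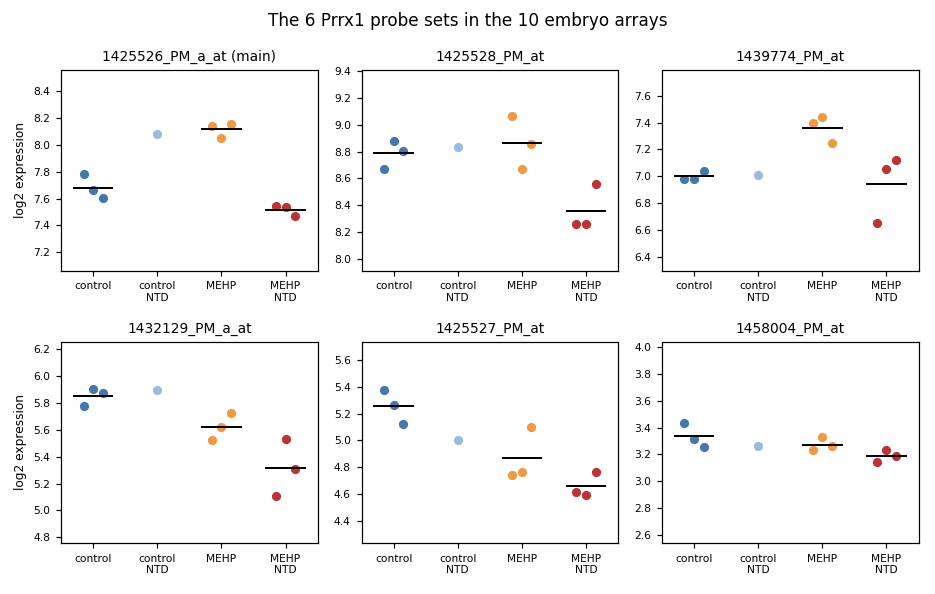
Log2 expression (vertical axis) of the 6 Prrx1 probe sets in the 10 embryo arrays, by group; each point is an array and the line is the mean of 3 arrays. The means with MEHP and NTD lie below those with MEHP alone in all 6 panels, while MEHP lies above controls for 1425526_PM_a_at and 1439774_PM_at and below them for 1425527_PM_at and 1432129_PM_a_at.

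Prrx2, the paralogue of Prrx1 and expressed beside it in craniofacial and limb mesenchyme, did not pass in any embryo comparison by exposure or NTD. Its probe set read 8.67, 8.61 and 8.55 in controls, 8.72, 8.74 and 8.69 in MEHP embryos and 8.85, 8.75 and 8.93 in MEHP embryos with NTD. The 3 groups did not overlap, but no difference passed: 0.11 ± 0.07 with MEHP (adjusted p = 0.332), 0.12 ± 0.07 with NTD (0.924) and 0.23 ± 0.07 between MEHP embryos with NTD and controls (0.0676). The control with NTD read 8.83, above all 3 controls. Where Prrx1 was lower by 0.60 in MEHP embryos with NTD, Prrx2 was higher by 0.12, and the difference between the genes was not tested.

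Marker lists chosen to hold none of the 9 factors show what else moved in the same embryos. With MEHP, 9 of the 130 listed genes measured passed, where 9.72% of all genes did. At an unadjusted p below 0.05 there were 36 (27.7%), beside 28.8% of all genes. With MEHP, 2 of 15 neural crest specifiers rose, the zinc finger repressor Zeb2 by 0.67 ± 0.14 (adjusted p = 0.0198) and the helix-loop-helix inhibitor Id2 by 0.26 ± 0.07 (adjusted p = 0.0368), and 0 fell. Of the genes of migrating crest and its derivatives 0 of 15 passed by limma, and 4 had an unadjusted p below 0.05. In the dorsal neural tube list Zic5 rose by 0.36 and Wnt3a fell by 0.34, of 13 genes measured. The myogenic factor Myf5, which lies in the somite list, rose by 1.17 ± 0.22 (adjusted p = 0.0170), while Meox1 and Pax9 fell by 0.25 and 0.32. The median differences of these 4 lists lay between -0.09 and 0.12, beside -0.04 over all genes. Of the 27 facial and head mesenchyme genes 1 rose and 0 fell, and 9 had an unadjusted p below 0.05. Their median difference was 0.008. The mean level of that list overlapped, at 6.665 to 6.807 in controls and 6.685 to 6.825 in MEHP embryos.

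Among the other cell types, Sox1 was the 1 riser of 10 neural tube progenitor markers (0.59 ± 0.15, adjusted p = 0.0344). The mean level of that list lay between 7.713 and 7.894 in control embryos and between 7.917 and 7.985 in MEHP embryos, without overlap. That of the neural crest specifiers did not overlap either, at 7.744 to 7.771 in controls and 7.851 to 7.882 in MEHP embryos. The mean of the somite list overlapped, at 5.954 to 6.224 against 6.031 to 6.224, and so did those of limb and lateral plate and of visceral endoderm. The visceral endoderm mean varied widely within groups, from 5.426 to 7.373 in controls and from 5.619 to 7.690 in MEHP embryos. Whether the shifts of these lists or this spread have a part in the rises of Pax3 and Prrx1 was not tested.

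With NTD among MEHP embryos no gene of the 10 lists passed (limma, 130 genes measured), and 21 had an unadjusted p below 0.05, beside 5.66% of all genes. The receptor Kit of the pigment lineage differed by 0.44 ± 0.09 (adjusted p = 0.261). Myf5 differed by -0.78 ± 0.22 (adjusted p = 0.484), Fabp7 of neural progenitors by -0.87 ± 0.28 (adjusted p = 0.633) and Sox9 of the crest by -0.41 ± 0.16 (adjusted p = 0.810). Mean levels of the dorsal neural tube list were 6.453 to 6.556 with NTD against 6.635 to 6.755 without. Those of the neural progenitor list were 7.693 to 7.879 against 7.917 to 7.985, and those of the crest specifiers 7.776 to 7.849 against 7.851 to 7.882. The median gene differed by -0.11 in the dorsal neural tube list and by -0.07 in the neural progenitor list. In the crest specifiers it differed by only -0.008, beside -0.0009 over all genes. Surface ectoderm markers were at 7.622 to 7.685 with NTD and 7.541 to 7.597 without. The limb list overlapped, at 7.045 to 7.244 against 7.170 to 7.316, as did the head mesenchyme list. The part of these shifts in the lower Prrx1 was not tested.

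In MEHP embryos with NTD set against controls, 12 of the 130 listed genes passed, where 7.45% of all genes did. At an unadjusted p below 0.05 there were 32 (24.6%), beside 27.7% of all genes. The crest factors Snai1 and Id2 rose by 0.47 and 0.25, Id2 having also risen in MEHP embryos without NTD, and Dct of the pigment lineage fell by 0.28. In the head mesenchyme list Hand2 rose by 0.36 and Barx1 fell by 0.50. The keratins Krt8 and Krt18 of the surface ectoderm list rose by 0.38 and 0.34, Osr1 of the lateral plate list by 0.62 and Otx2 of the neural list by 0.40, while Sox3 and Atoh1 fell by 0.29 and 0.62.

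The control embryo with NTD was above all 3 controls for 6 of the 9 main probe sets (66.7%), within their range for 3 and below for 0. Over all genes 26.5% were above, 51.2% within and 22.3% below. The largest excesses over the control mean were those of Tfap2b (0.50), Alx1 (0.45) and Prrx1 (0.40). The other Prrx1 probe sets 1425528_PM_at, 1439774_PM_at and 1432129_PM_a_at of that embryo lay within the control range, and 1425527_PM_at lay below it. With 1 array no test of a defect without MEHP was made.

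Across the 10 embryo arrays the factors with the most similar readings were Pax3 and Snai2 (Pearson r = 0.829), Pax3 and Alx1 (0.788) and Prrx1 and Tfap2b (0.761), as a description over arrays that share the same groups and array order. The genes most like Pax3 among 10396 genes at or above the median were Itgb1 (0.965) and Socs3 (0.953). Those most like Prrx1 were 2900092D14Rik (0.864) and Ckb (0.854), and those most like Prrx2 were Lama5 (0.926) and Arl6ip4 (0.911). For Alx1 they were Pde7a (0.973) and Twf2 (0.968), for Snai2 Zbtb11 (0.981) and Ift122 (0.952), and for Twist1 Uchl1 (0.916) and Tbc1d10a (0.912). Tfap2b was most like Tmem65 (0.959) and Vezt (0.887), Tfap2a like Pdia5 (0.914) and Mogat2 (0.868), and Pax7 like Snord123 (0.881) and Pik3ip1 (0.879). By rank (Spearman rho) Twf2 reached 0.745 and Pdia5 0.77, and the other genes named lay at 0.818 or above. These are the highest values among 10396 genes over 10 arrays, and how high such maxima run between unrelated genes was not tested.

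In yolk sacs 0 of the 9 factors passed with MEHP (0.313% of all genes passed) and 0 of 9 between MEHP yolk sacs with and without NTD, where no gene passed by limma (0%). At an unadjusted p below 0.05 there were 2 and 4 of the 9, against 17.1% and 9.63% of all genes. The 65 genes called with MEHP became 1 to 2 without any 1 of the 6 arrays. Snai2 rose in MEHP yolk sacs with NTD compared with controls, where 2.38% of all genes passed, 1.4% as rises and 20.8% at an unadjusted p below 0.05. It read 9.32, 9.40 and 9.44 in controls, 9.39, 9.43 and 9.54 in MEHP yolk sacs and 9.81, 9.71 and 9.66 in MEHP yolk sacs with NTD. The arrays with NTD lay above the other 6, and also above the control with NTD (9.58).

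The rise of Snai2 in MEHP yolk sacs with NTD over controls was 0.35 ± 0.07 (adjusted p = 0.0354), and the probe set 1418673_PM_at rose by 0.43 ± 0.09 (adjusted p over all probe sets = 0.0342), where 3.18% of all probe sets passed. The main call was lost without any 1 of the 6 arrays (0.30 to 0.38, adjusted p from 0.0742 to 0.0929) and after quantile or cyclic loess normalisation (adjusted p = 0.0530 and 0.0584). Over all genes the 494 calls of that comparison became 18 (without control array 3) to 192 (without MEHP NTD array 1). The call of 1418673_PM_at held in 1 of 6 such fits, without MEHP NTD array 2. MEHP yolk sacs with NTD differed from those without by 0.28 ± 0.07 (unadjusted p = 0.00216, adjusted p = 0.228).

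The mesenchymal factors Prrx2 and Twist1 did not pass in yolk sacs. Prrx2 read 4.24, 4.19 and 4.28 in MEHP yolk sacs and 4.79, 4.27 and 5.23 in those with NTD (0.53 ± 0.22, adjusted p = 0.481). Twist1 read 6.44, 6.67 and 6.26 against 6.63, 6.44 and 6.97 (0.23 ± 0.15, adjusted p = 0.693). Both overlapped between the groups.

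Of the 27 facial and head mesenchyme genes, 0 passed by limma between MEHP yolk sacs with and without NTD. At an unadjusted p below 0.05 there were 6, beside 9.63% of all genes. In yolk sac 14 of the 27 lay within 1 log2 unit of the nonspecific level. The mean of the facial and head mesenchyme list lay between 5.278 and 5.414 with NTD and between 5.154 and 5.237 without, and the controls overlapped the yolk sacs with NTD, at 5.266 to 5.337. That of limb and lateral plate markers overlapped, at 5.004 to 5.522 against 4.878 to 5.036. Neural tube progenitor markers overlapped, at 4.110 to 4.335 against 4.184 to 4.268, with 8 of 10 within 1 log2 unit of the nonspecific level. The list of migrating crest and its derivatives lay at 6.753 to 6.847 with NTD and 6.519 to 6.627 without, and visceral endoderm markers at 12.286 to 12.381 with NTD and 12.435 to 12.497 without, both without overlap. In MEHP yolk sacs with NTD against controls, 4 of the 130 listed genes passed, where 2.38% of all genes did. At an unadjusted p below 0.05 there were 27 (20.8%), beside 20.8% of all genes. The crest and mesenchyme genes Msx1, Nrp1 and Foxc1 rose by 0.61, 0.38 and 0.43, and 1 neural tube progenitor marker fell. The part of these shifts in the Snai2 readings was not tested.

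**Figure D5:**
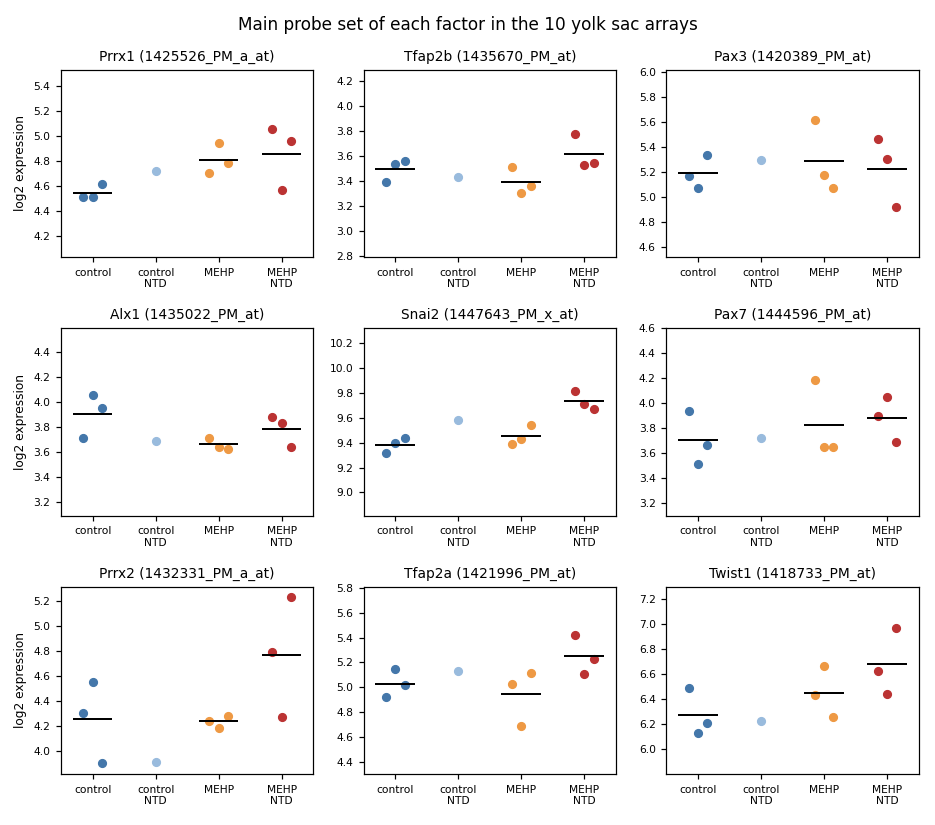
Log2 expression (vertical axis) of the main probe set of each factor in the 10 yolk sac arrays, by group; each point is an array and the line is the mean of 3 arrays. Snai2 with MEHP and NTD, at 9.66 to 9.81, is above every other yolk sac array, while Prrx2 spreads from 4.27 to 5.23 in the same 3 arrays.

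The difference between MEHP conceptuses with and without NTD was lower in embryo than in yolk sac for all 9 factors, with a median of -0.31 beside -0.01 over all genes, and 0 of the 9 passed, where 0.0144% of all genes did. The yolk sac readings of Tfap2b, Alx1 and Pax7 that enter this tally lay around the nonspecific level or below it. At an unadjusted p below 0.05 there were 3 of the 9, against 7.64% of all genes. These were Prrx1 (-0.65 ± 0.14, adjusted p = 0.197), Tfap2b (-0.57 ± 0.15, adjusted p = 0.318) and Snai2 (-0.36 ± 0.09, adjusted p = 0.291). Prrx1 passed in 1 of 12 fits without an array, the fit without MEHP NTD yolk sac array 2 (-0.80, adjusted p = 0.0184).

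The response to MEHP without NTD differed between the tissues for 0 of 9 main probe sets, where 0.0769% of all genes passed, and 2 of 9 had an unadjusted p below 0.05, against 13.1% of all genes. Alx1 differed by 0.73 ± 0.18 (adjusted p = 0.137), and its yolk sac readings lay around the nonspecific level, which was 3.869 to 4.080 in controls and 3.696 to 3.832 with MEHP. It passed in 1 of 12 fits without an array, the fit without control embryo array 3 (0.91, adjusted p = 0.0117). Among the 13 other probe sets, 1 passed, 1456454_PM_at of Alx1, where 0.269% of all probe sets did.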

How the data were processed

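Expression was measured on 20 Affymetrix arrays. Per the submitters' processing notes the deposited log2 values come from RMA, and limma and R 2.15.1 are named. The authors' deposited comparison tables give a log2 difference, with its ratio, and p-values adjusted over all probe sets. Raw array signals were not used here. Groups follow the comparison files, whose log2 differences were rebuilt from the arrays they list. Arrays are numbered by their order in the file, as names only.

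From 45141 probe sets, 104 control features and 6670 lacking a gene symbol were removed, and 3025 symbols were updated through RefSeq. Each of 20794 genes was represented by its probe set with the highest mean over 20 arrays. limma 3.58.1 (R 4.3.3) fitted group means over the 10 arrays of a tissue, or over all 20 between tissues, with empirical Bayes variances. P-values were adjusted by Benjamini-Hochberg over all genes, or over all probe sets except the controls where stated, with a threshold of 0.05. Rose, fell and passed refer to it. Differences are log2, with limma's standard error and 95% confidence intervals. Precision is limited by how few arrays there are: the median standard error over genes was 0.0893 in embryos. Fits between tissues treat embryo and yolk sac arrays as independent. The procedure was tested on simulated data.

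Genes named beside the 9 factors are the listed genes past the threshold, at most 4 in each direction, or the 2 of smallest p where none passed, of which the text gives a part (some are not reported here), and the 2 genes most like each factor over the 10 embryo arrays. The factors and the lists were chosen with earlier results of these data known. Alternatives were other normalisations, filters, variance settings, sample sets, a background covariate and the second table's sample headings. Figures were drawn with matplotlib 3.10.9 in Python 3.11.15, from pandas 2.3.3 and numpy 2.4.6.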

Additional observations from a re-analysis of the deposited data

Results flagged for a closer look

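The Alx1 probe set 1456454_PM_at answered MEHP differently in the 2 tissues by the test of the difference itself. It was higher with MEHP by 0.77 ± 0.17 in embryos and differed by -0.29 in yolk sacs (adjusted p = 0.0808), where it read 3.34, 3.58 and 3.61 with MEHP and 3.82, 3.81 and 3.79 in controls. The difference between tissues was 1.06 ± 0.20 log2 units (95% confidence interval 0.64 to 1.48, adjusted p over all probe sets = 0.0392), where 0.269% of all probe sets passed. All yolk sac readings of this probe set lay below the nonspecific level of their own group, and that level was lower with MEHP. Their part in the difference was not tested. The call held in 2 of 12 fits without an array, those without control embryo array 2 (1.17, adjusted p = 0.0225) or 3 (1.04, adjusted p = 0.0366), and it did not pass after quantile normalisation (0.96, adjusted p = 0.0529) nor with background adjusted by the nonspecific level (1.07, adjusted p = 0.0501). The main Alx1 probe set gave 0.73 ± 0.18 (adjusted p = 0.137).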

How the results depend on the processing

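No paired analysis was possible because the array columns used carry no replicate numbers: the sample titles do, but they reach the arrays only through the second table's headings, which go against the groups, and no label says that a shared number means a shared conceptus. Counts below are factors past the threshold of 9, then, where given, other probe sets of 13. With the nonspecific level as a covariate the embryo response to MEHP gave 0 and 0, NTD among MEHP embryos 0, MEHP embryos with NTD against controls 0 other probe sets, MEHP yolk sacs with NTD against controls 0 and 0, and the tissue difference of the MEHP response 0 other probe sets. Quantile and cyclic loess normalisation each gave 0 for NTD among MEHP embryos and 0 and 0 for MEHP yolk sacs with NTD against controls, and 2 and 1 other probe sets for MEHP in embryos. Quantile normalisation also gave 0 other probe sets for the tissue difference. Without dim genes there were 2 other probe sets for MEHP in embryos, 2 for MEHP embryos with NTD against controls and 0 for the tissue difference, with fewer probe sets tested. Fits of only the 2 groups gave 0 for NTD among MEHP embryos, 0 and 0 for MEHP yolk sacs with NTD, and 2 other probe sets for MEHP in embryos and 2 for MEHP embryos with NTD. All 20 arrays in 1 fit gave 4 for MEHP in embryos and 1 for MEHP embryos with NTD. Without the arrays of high 3′/5′ ratio (control embryo array 3, MEHP NTD embryo array 1 and control yolk sac array 2) there were 0 for NTD among MEHP embryos, 2 for MEHP embryos with NTD, 0 and 0 for MEHP yolk sacs with NTD, and 1 for the tissue difference. The mean of all probe sets gave 0 for NTD among MEHP embryos, 3 for MEHP embryos with NTD (1 rise, 2 falls) and 1 for the tissue difference, and tests over every probe set gave 0 for NTD among MEHP embryos. The sample headings of the second table, which mix tissues, gave 8 falls and 9 for MEHP in embryos, 0 for NTD among MEHP embryos, 0 other probe sets for MEHP embryos with NTD, 7 and 6 for NTD among MEHP yolk sacs, 0 and 0 for MEHP yolk sacs with NTD, 0 and 1 for embryo against yolk sac, 9 and 9 for the tissue difference of the MEHP response, and 8 and 9 for that of NTD. They reversed Prrx1 and Pax3 with MEHP (-3.14 and -2.27) and Prrx1 with NTD (2.43). Apart from the reasons given, the cause of a change was not tested. Leaving out 1 array gave 2 to 3 factors and 0 to 4 other probe sets for MEHP in embryos, 0 to 0 and 0 to 0 for NTD among MEHP embryos, 0 to 2 and 1 to 3 for MEHP embryos with NTD (2 factors without control embryo array 3), 0 to 0 and 0 to 1 for MEHP yolk sacs with NTD, 9 to 9 and 10 to 10 between tissues, and 0 to 1 and 0 to 1 for both tissue differences. Calls over all genes with MEHP in embryos were 2021, and without 1 array from 286 (without MEHP array 2) to 2493 (without control array 3), at 414, 549, 612 and 1072 without MEHP array 3, MEHP array 1, control array 1 and control array 2. They were 0 with the covariate, 3309 without the arrays of high 3′/5′ ratio, 6521 under the second table's headings, 998 after quantile and 958 after cyclic loess normalisation, 540 without dim genes (76.9% rises) and 3439 in 1 fit of 20 arrays. For MEHP embryos with NTD against controls the 1549 calls (43.1% rises) became 0 with the covariate, 348 in a fit of the 2 groups, 3006 in 1 fit of 20 arrays, 270 (without MEHP NTD array 2) to 1937 (without control array 3) without 1 array, 792 (59.7%) after quantile and 717 (68.5%) after cyclic loess normalisation.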
